A study of Bos taurus with 16 samples.

Results

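The 7 genes described here were INSIG1, SREBF2, HMGCS1, IDI1, FDFT1, SQLE and LSS, which act in the control of cholesterol synthesis or in the synthesis itself, as measured in bovine spleen. A gene was taken where a transcript cluster, the set of array probes along a gene that is summarised as a single value, carried its symbol and no other in the platform annotation. All 7 were found, each on 1 cluster, among 18441 genes with a single symbol and 24651 rows tested in all. The spleens came from 16 crossbred steers that had been fed freely through a trial of 84 days, begun at about a year of age, and were taken from the extremes of gain and feed intake. Each of the groups held 4 steers. The main comparison set low gain-low intake steers against the rest, which were high gain-high intake, low gain-high intake and high gain-low intake steers. The animals received no experimental treatment and shared 1 diet, which held a supplement with monensin. The groups were therefore extremes of natural variation and not the outcome of an intervention. Their breed composition differed between groups, and 1 animal of each group was slaughtered on each of several days. Neither the slaughter day, breed nor array strip of single animals is stated in the sources used here, and none entered the fit. Steers are numbered within a group only to name them.

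Cells make cholesterol from acetyl-CoA through mevalonate, isoprenoid units and squalene, and they adjust the rate at the level of transcription. The transcription factor encoded by SREBF2 is made as a membrane protein of the endoplasmic reticulum. When sterols are scarce, its escort SCAP carries it to the Golgi, where proteases release the active part, and genes of sterol synthesis are switched on. When sterols are plentiful, INSIG1 holds SCAP and its cargo in the endoplasmic reticulum, so that the factor is not released. INSIG1 is itself a target of the released factor, so that it commonly moves with the enzymes it restrains. In spleen, sterol handling is best known in macrophages that clear old red cells and in lymphocytes that build membrane when they divide.

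The deposited values were log2 signals on a stretched scale, so differences are given on that log2 scale. Levels are not compared between probes of different genes. Where spreads or differences of several genes are set side by side, this is a description that rests on different probes. Array medians ranged from 8.23 to 8.36 and correlations between arrays from 0.955 to 0.986. With 4 arrays in a group, the precision is limited by their number. Markers of B cells averaged between 11.4 and 12.7 per steer, those of T cells between 11.6 and 13.3, those of macrophages between 15.8 and 16.8, erythroid markers between 6.65 and 6.95 and pancreas markers between 7.17 and 7.68. These lists rest on different probes, so their order does not measure the share of each cell type. Neutrophil markers ranged from 8.35 to 12.6, with the top value in low gain-low intake steer 2. In whole spleen, a change in the number of cells of a type and a change in RNA per cell cannot be told apart.

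The mean of INSIG1 was highest in low gain-low intake steers, and by limma no other of the 7 genes reached an unadjusted p under 0.05 in any of the contrasts. HMGCS1, SQLE, LSS and FDFT1 instead varied together from steer to steer inside the groups, and SREBF2 had nearly the same mean in all 4 groups. None of these group differences passed the adjusted threshold. By the F test of limma, 1 of the 7 genes was under an unadjusted p of 0.05, against 4.71% of all rows, and 0 had an adjusted p under 0.05. Over all 24651 rows the F test gave 1160 at the unadjusted level and 0 at the adjusted level (0%).

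INSIG1 read 10.36, 10.27, 12.39 and 11.60 in low gain-low intake steers 1 to 4. It read 9.64, 9.46, 9.38 and 10.70 in the high gain-high intake steers, 9.56, 10.40, 9.56 and 9.65 in the high gain-low intake steers and 9.41, 9.01, 9.77 and 10.78 in the low gain-high intake steers. Low gain-low intake steers 3 and 4 were above all 12 other steers, steers 1 and 2 were inside the range of the others, and so the groups overlapped. The steers closest below were steer 4 of low gain-high intake and steer 4 of high gain-high intake.

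The group means of INSIG1 were 11.15 ± 1.02 in low gain-low intake, 9.80 ± 0.61 in high gain-high intake, 9.79 ± 0.41 in high gain-low intake and 9.74 ± 0.76 in low gain-high intake (SD, n = 4 each). The last 3 means were within 0.06 of each other, with exact permutation p of 1 and 0.886 between neighbours. The step of 1.36 between low gain-low intake and high gain-high intake had an exact permutation p of 0.0857, where 0.0286 is the smallest that 4 steers against 4 allow. Low gain-low intake minus the mean of the other groups was 1.38 (SE 0.38, 95% confidence interval 0.56 to 2.19), a ratio of 2.60 on the stretched scale. The unadjusted p was 0.00264, the limma adjusted p 0.627, and the two-sided exact permutation p over 1820 splits 0.00549. For this contrast 1 of the 7 genes was under an unadjusted p of 0.05, against 5.49% of all rows, and 0 had an adjusted p under 0.05. Over all rows, 1354 were under 0.05 before adjustment and 0 after it (0%), or 3 with array weights and 0 by ordinary least squares. Without low gain-low intake steer 3 the INSIG1 difference was 0.964, and without steer 2 it was 1.67. INSIG1 is among the genes that the study picked on these animals, so its direction here is not independent of that choice.

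**Figure D1:**
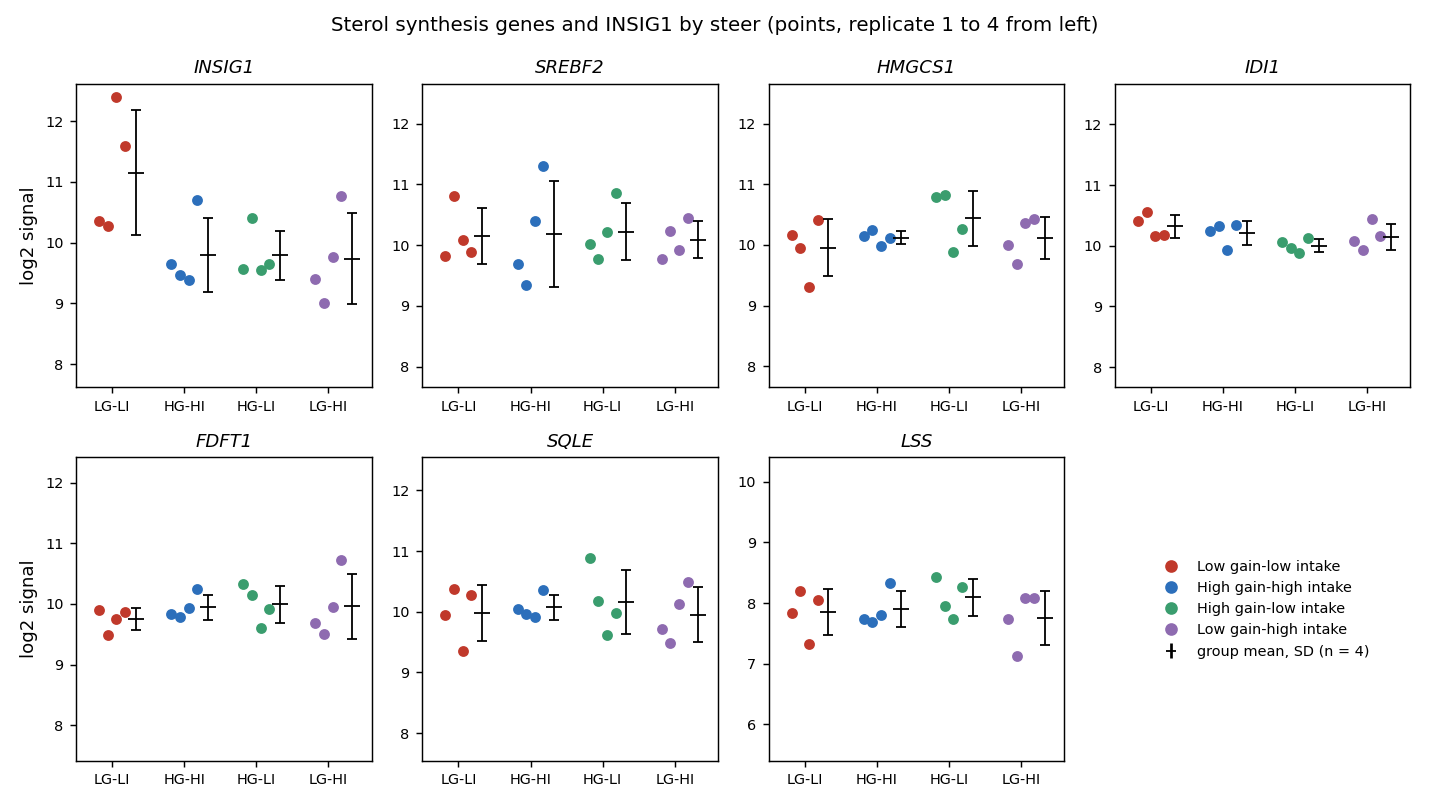
Log2 signal of each gene (vertical axes, each spanning the same number of log2 units) in every steer (points, replicates 1 to 4 from left) of the low gain-low intake (LG-LI), high gain-high intake (HG-HI), high gain-low intake (HG-LI) and low gain-high intake (LG-HI) groups, with the group mean and SD (n = 4) as a bar. For INSIG1 the low gain-low intake steers reach 12.39 and the others reach 10.78, while IDI1 stays between 9.87 and 10.55 in all 16 steers.

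The same pattern entered the factorial contrasts of INSIG1. High gain steers averaged 9.79 and low gain steers 10.45, a difference of -0.65 (SE 0.33, limma adjusted p = 0.817, exact permutation p = 0.155). High intake steers averaged 9.77 and low intake steers 10.47, a difference of -0.70 (SE 0.33, limma adjusted p = 1, exact permutation p = 0.126). The interaction, the effect of intake (high minus low) in the high gain steers less the same effect in the low gain steers, was 1.42 (SE 0.66, unadjusted p = 0.0493, limma adjusted p = 1, exact permutation p = 0.124). At an unadjusted p under 0.05 there were 0 of the 7 genes for gain, against 6.06% of all rows, 0 for intake, against 3.4%, and 1 for the interaction, against 4.64%. At an adjusted p under 0.05 limma called 0 of the 24651 rows (0%) in each of the 3 contrasts, where the unadjusted counts were 1495, 839 and 1145. The counts of the 7 genes at the unadjusted level depended on the processing. INSIG1 had an unadjusted p of 0.0314 for gain and 0.0294 for intake under array weights, and for intake of 0.0468 with trend and robust moderation and 0.0476 after median centring. Its interaction had an unadjusted p of 0.0774 by ordinary least squares, 0.0531 under array weights, 0.057 after quantile normalization and 0.0519 among rows above the median level. Smooth muscle markers, from the capsule of the spleen, had a positive difference of high minus low intake for 6 of 6 (median 0.69, 2 at an unadjusted p under 0.05, 0 after adjustment) and a list mean between 13.0 and 15.1 in high intake and between 12.7 and 14.3 in low intake steers. Their part in these values was not tested.

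SREBF2, the precursor of the transcription factor, had group means closer together than any other of the 7 genes. It read 9.82, 10.82, 10.08 and 9.89 in low gain-low intake, 9.69, 9.34, 10.40 and 11.30 in high gain-high intake, 10.02, 9.77, 10.22 and 10.87 in high gain-low intake and 9.77, 10.23, 9.92 and 10.44 in low gain-high intake. The highest and the lowest of the 16 steers were both in the high gain-high intake group, and all groups overlapped. The means were 10.15 ± 0.46 in low gain-low intake, 10.18 ± 0.87 in high gain-high intake, 10.22 ± 0.47 in high gain-low intake and 10.09 ± 0.30 in low gain-high intake (SD, n = 4 each; F test unadjusted p = 0.987, permutation p = 0.99). Low gain-low intake minus the other groups was -0.01 (SE 0.30), with a 95% confidence interval from -0.65 to 0.62 that leaves room for a difference of more than 0.5 either way. SREBF2 messenger does not measure how much of the factor is released from the membrane.

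HMGCS1 encodes HMG-CoA synthase of the cytosol, which acts early in the pathway, before mevalonate is formed. It read 10.16, 9.94, 9.31 and 10.40 in low gain-low intake, 10.14, 10.24, 9.98 and 10.12 in high gain-high intake, 10.78, 10.82, 9.88 and 10.27 in high gain-low intake and 9.997, 9.69, 10.36 and 10.43 in low gain-high intake. The top steers were the first and the second of high gain-low intake, and the lowest was low gain-low intake steer 3, the steer with the most INSIG1. Low gain-low intake averaged 9.95 ± 0.47 and the other groups between 10.12 and 10.44. The low gain-low intake difference was -0.27 (SE 0.20, 95% confidence interval -0.71 to 0.16, exact permutation p = 0.226), but -0.06 without low gain-low intake steer 3 and -0.42 without steer 4. High gain minus low gain was 0.24 (SE 0.18, exact permutation p = 0.213). Leaving out the same steer 3 gave 0.13 for gain. High gain-low intake minus the other groups was 0.37 (SE 0.20, limma adjusted p = 0.913, exact permutation p = 0.0868).

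IDI1 encodes isopentenyl diphosphate isomerase, which interconverts the C5 isoprenoid units. It had the narrowest spread of the 7 genes, with an SD of 0.20 over all 16 steers, against 0.90 for INSIG1. It read 10.40, 10.55, 10.16 and 10.17 in low gain-low intake, 10.24, 10.32, 9.93 and 10.34 in high gain-high intake, 10.06, 9.96, 9.87 and 10.12 in high gain-low intake and 10.07, 9.93, 10.43 and 10.16 in low gain-high intake. Every low gain-low intake steer was above every high gain-low intake steer, as for 1 of the 7 genes and 2.12% of all rows, while the high intake groups overlapped both. IDI1 averaged 10.32 ± 0.19 in low gain-low intake, 10.21 ± 0.19 in high gain-high intake, 10.003 ± 0.11 in high gain-low intake and 10.15 ± 0.21 in low gain-high intake (SD, n = 4 each). Low gain-low intake minus the other groups was 0.20 (SE 0.11, limma adjusted p = 0.939, exact permutation p = 0.078). Leaving out steer 2 of this group gave 0.12. High gain-low intake minus the other groups was -0.22 (SE 0.11, limma adjusted p = 0.903, exact permutation p = 0.0484), singled out here after its values were seen. Smooth muscle markers had negative differences for the same group in 6 of 6 (median -0.59, 1 at an unadjusted p under 0.05, 0 after adjustment), and their part was not tested. For that contrast 0 of the 7 genes had an unadjusted p under 0.05 in limma, against 5.59% of all rows. The interaction of IDI1 was 0.38 (SE 0.20, limma adjusted p = 1, exact permutation p = 0.0569).

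FDFT1, squalene synthase, commits the pathway to sterols. It read 9.90, 9.49, 9.75 and 9.87 in low gain-low intake, 9.83, 9.78, 9.93 and 10.24 in high gain-high intake, 10.32, 10.14, 9.61 and 9.91 in high gain-low intake and 9.69, 9.50, 9.94 and 10.72 in low gain-high intake. Low gain-high intake held both the top steer, number 4, and a steer next to the bottom, and all groups overlapped. Low gain-low intake averaged 9.75 ± 0.19 and the other groups between 9.95 and 9.996, a difference of -0.22 (SE 0.19, 95% confidence interval -0.61 to 0.18, exact permutation p = 0.253), and it was -0.13 without steer 2 of that group or without low gain-high intake steer 4.

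SQLE, squalene epoxidase, carries out the first oxygen-dependent step of the pathway. It read 9.94, 10.37, 9.35 and 10.27 in low gain-low intake, 10.05, 9.95, 9.92 and 10.37 in high gain-high intake, 10.88, 10.18, 9.62 and 9.97 in high gain-low intake and 9.72, 9.48, 10.13 and 10.49 in low gain-high intake. As for HMGCS1, low gain-low intake steer 3 was the lowest of all, and the first high gain-low intake steer was the highest. The mean was 9.98 ± 0.46 in low gain-low intake and between 9.95 and 10.16 elsewhere, a difference of -0.08 (SE 0.23, 95% confidence interval -0.57 to 0.41, exact permutation p = 0.733).

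LSS, lanosterol synthase, closes the epoxide of squalene to the first sterol. It read 7.83, 8.19, 7.33 and 8.04 in low gain-low intake, 7.75, 7.69, 7.81 and 8.33 in high gain-high intake, 8.43, 7.96, 7.74 and 8.26 in high gain-low intake and 7.73, 7.13, 8.09 and 8.08 in low gain-high intake. The first high gain-low intake steer was again the highest, and the lowest were the second low gain-high intake steer and low gain-low intake steer 3. The mean was 7.85 ± 0.38 in low gain-low intake and between 7.76 and 8.10 elsewhere, a difference of -0.07 (SE 0.20, 95% confidence interval -0.49 to 0.35, exact permutation p = 0.763).

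Over the 7 genes, the low gain-low intake difference was positive for 2, INSIG1 and IDI1, and negative for 5, with a median of -0.07 against -0.002 over all rows, of which 49.5% were positive. For gain, 5 were positive and 2 negative, with a median of 0.11 against -0.01 over all rows, of which 47% were positive. The neighbours in the order of group means overlapped for every gene, and apart from the INSIG1 step none of these neighbour pairs had an exact permutation p under 0.257.

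**Figure D2:**
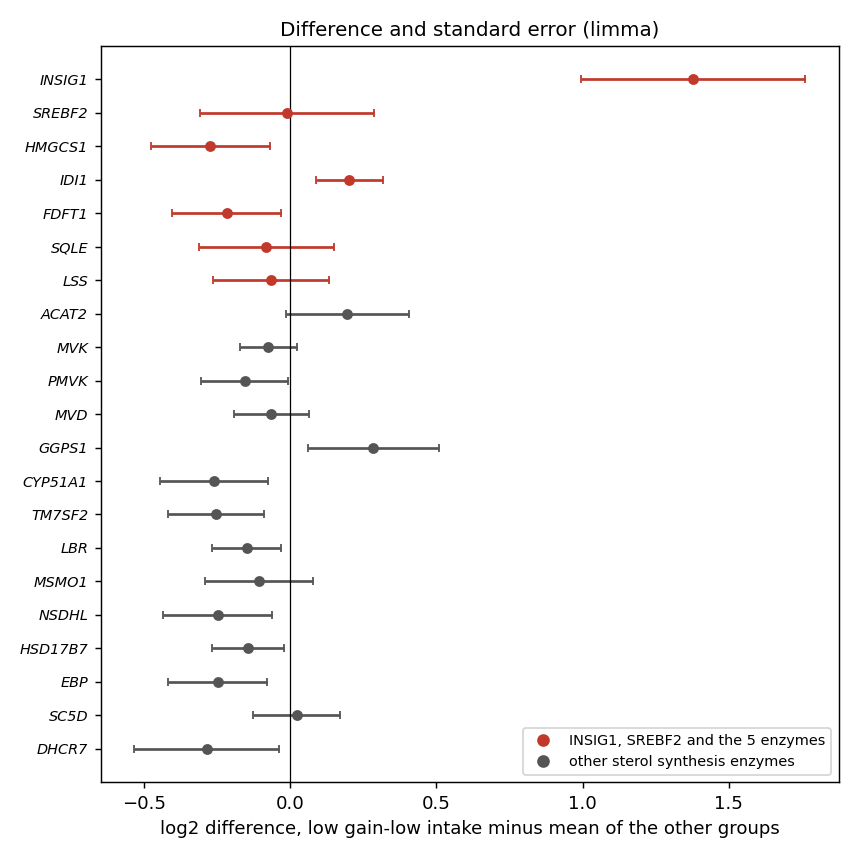
Low gain-low intake mean minus the mean of the other 3 groups (horizontal axis, log2 units), with its limma standard error as a bar, for INSIG1, SREBF2 and the 5 enzymes (red) and for 14 other enzymes of the pathway (grey). INSIG1 is at 1.38, and the 20 other genes are between -0.29 and 0.28.

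The enzymes were then set against each other over the 16 steers, since genes with a common regulator are often read by their covariation. Of the 21 pairs among the 7 genes, 18 had a positive Pearson's r, and 5 had a permutation p under 0.05 after adjustment over the 21. SQLE and LSS had an r of 0.86 (permutation p = 4e-05, adjusted p = 0.00084) and a Spearman's rho of 0.84 (permutation p = 0.00014, adjusted p = 0.00294). HMGCS1 and SQLE had an r of 0.79 (permutation p = 0.00029, adjusted p = 0.00304) and a rho of 0.71 (permutation p = 0.00286, adjusted p = 0.02). Without the 2 steers farthest from the median of the first gene named, r was 0.80 and 0.81 for these pairs.

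The other 3 pairs were HMGCS1 with LSS (r = 0.69, permutation p = 0.00328, adjusted p = 0.023; rho = 0.57, permutation p = 0.0225, adjusted p = 0.0788), SQLE with FDFT1 (r = 0.66, permutation p = 0.00513, adjusted p = 0.0269; rho = 0.61, permutation p = 0.0136, adjusted p = 0.0571) and HMGCS1 with FDFT1 (r = 0.63, permutation p = 0.0101, adjusted p = 0.0424; rho = 0.75, permutation p = 0.00121, adjusted p = 0.0127). Without the 2 farthest steers r was 0.70, 0.65 and 0.71. LSS and FDFT1 had an r of 0.55 (permutation p = 0.0278, adjusted p = 0.0973) and a rho of 0.64 (permutation p = 0.00939, adjusted p = 0.0493), and an r of 0.45 without the 2 farthest steers. After the group means were removed, r among these 4 enzymes was between 0.58 and 0.87, so the covariation was present between steers of 1 group. Values of 1 steer come from 1 array, and r of the 7 genes with the array median was between -0.01 and 0.24. Array medians spanned only 8.23 to 8.36, so this r cannot show whether sample quality entered the covariation. The paper measured RNA integrity, but its value for each steer is not given in the sources used here, and its part was not tested. The first high gain-low intake steer had the highest mean of the 5 enzymes, 10.10, and the second low gain-high intake steer the lowest, 9.15, next to low gain-low intake steer 3 with 9.18.

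IDI1 stood outside this set over all steers. Its r with HMGCS1, SQLE, LSS and FDFT1 was 0.02, 0.32, 0.35 and -0.02 (permutation p between 0.19 and 0.942, adjusted p between 0.499 and 0.954), and its rho was between 0.01 and 0.37 (permutation p between 0.16 and 0.987, adjusted p between 0.323 and 0.987). After removal of the group means its r was 0.42, 0.52, 0.66 and 0.18. SREBF2 had its highest r with LSS, at 0.42 (permutation p = 0.108, adjusted p = 0.324; rho = 0.45, permutation p = 0.0847, adjusted p = 0.222), and its lowest with HMGCS1, at -0.18 (permutation p = 0.509, adjusted p = 0.771; rho = -0.28, permutation p = 0.294, adjusted p = 0.412).

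INSIG1 did not follow the enzymes across all 16 steers. Its r with the 5 enzymes was between -0.17 and 0.25 (adjusted p between 0.764 and 0.954), and rho between 0.29 and 0.46 (adjusted p between 0.218 and 0.398). The low r rested on low gain-low intake steers 3 and 4. Without both, r was 0.39 with HMGCS1, 0.56 with SQLE, 0.56 with LSS, 0.60 with FDFT1 and 0.45 with IDI1. Over the 12 steers of the other groups alone, a selection made after the values were seen and given without a test, r was 0.50 with HMGCS1, 0.59 with SQLE, 0.59 with LSS, 0.81 with FDFT1 and 0.33 with IDI1. Low gain-low intake steer 3 had the highest INSIG1, 12.39, with the lowest HMGCS1 and SQLE, whereas steer 4 had INSIG1 at 11.60 with a mean of the 5 enzymes of 9.75, inside the range of the other steers.

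**Figure D3:**
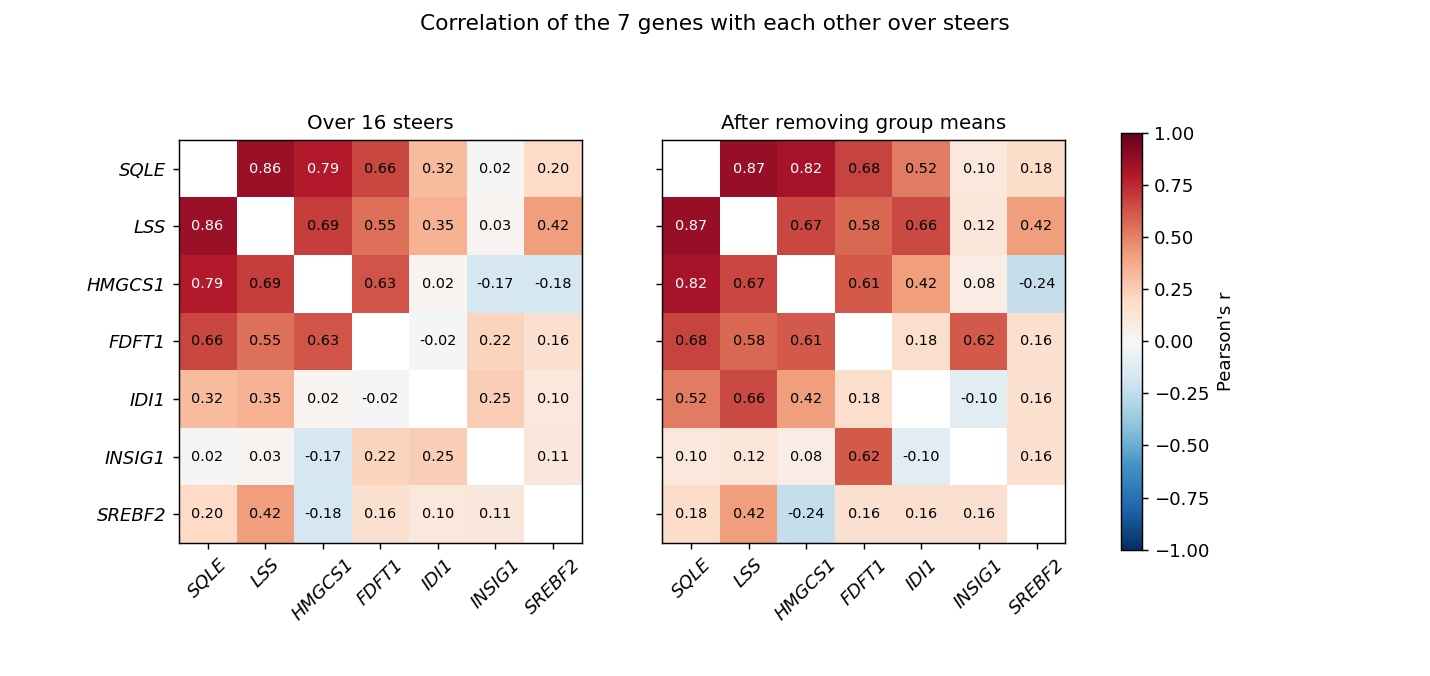
Pearson's r between the 7 genes over the 16 steers (left) and after the mean of each group was subtracted (right), with colour and number giving r from -1 to 1. SQLE, LSS, HMGCS1 and FDFT1 form a block with r from 0.55 to 0.86 at the left and from 0.58 to 0.87 at the right, while INSIG1 and SREBF2 have low values with most enzymes.

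Other enzymes of the mevalonate and sterol pathway were described as a list of 17 genes, of which 14 were found under a single symbol and the others were not analysed here. For low gain-low intake against the other groups, 3 had a positive and 11 a negative difference, with a median of -0.15 against -0.002 over all rows, and 0 had an unadjusted p under 0.05, against 5.49% of all rows. CYP51A1, the lanosterol demethylase, averaged 10.75 in low gain-low intake and between 10.87 and 11.13 elsewhere, a difference of -0.26 (SE 0.19, limma adjusted p = 0.963). NSDHL, a sterol dehydrogenase, differed by -0.25 (SE 0.19), TM7SF2, a sterol reductase, by -0.25 (SE 0.16) and PMVK, phosphomevalonate kinase, by -0.16 (SE 0.15). For gain, 10 of the 14 were positive and 4 negative, with a median of 0.11, and again 0 had an unadjusted p under 0.05, against 6.06% of all rows. NSDHL had an r of 0.81 with the mean of the 5 enzymes, SC5D 0.67, MSMO1 0.66, EBP 0.59 and ACAT2 0.57, whereas CYP51A1 had -0.23 and GGPS1 -0.55. These values over steers are a description without a test.

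Among the proteins that handle the SREBF2 precursor, 12 of 14 listed genes were found, and the others were not analysed here. SCAP, the escort, averaged 9.39 in low gain-low intake and between 9.08 and 9.45 in the other groups (difference 0.12, SE 0.17). MBTPS2, the protease of the second cut, differed by -0.17 (SE 0.14) and ERLIN1, which takes part in sterol-regulated degradation, by 0.10 (SE 0.10). UBXN8, which tethers the extraction factor p97 to the membrane of the endoplasmic reticulum, differed by -0.32 (SE 0.14, unadjusted p = 0.0399, limma adjusted p = 0.875) and was the 1 of the 12 under an unadjusted p of 0.05, against 5.49% of all rows. Cholesterol uptake and transport was read from 9 of 13 listed genes, with the others not analysed here. MYLIP, a ubiquitin ligase that limits lipoprotein uptake, differed by -0.27 (SE 0.15), VLDLR, a lipoprotein receptor, by -0.24 (SE 0.12), TMEM97, a binding partner of NPC1, by -0.15 (SE 0.13) and OSBP, a sterol transfer protein, by 0.06 (SE 0.14). Of the 9, 0 had an unadjusted p under 0.05, against the same 5.49%.

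Genes of cholesterol efflux and storage under the sterol receptors LXR, 13 of 13 found, had 5 positive and 8 negative low gain-low intake differences and 0 with an unadjusted p under 0.05, against 5.49% of all rows. ABCA1, the efflux pump, averaged 13.00 in low gain-low intake and between 12.89 and 13.47 in the other groups (difference -0.20, SE 0.29). CYP7B1, an oxysterol hydroxylase, differed by 0.002 (SE 0.14), NR1H2, the LXR beta receptor, by 0.06 (SE 0.17) and LPCAT3, a phospholipid acyltransferase, by -0.02 (SE 0.27). Of 12 genes of fatty acid synthesis that the sister factor SREBP1 controls, 5 were positive and 7 negative for low gain-low intake. Of these 12, 0 had an unadjusted p under 0.05, against the same 5.49%. ACACA, acetyl-CoA carboxylase, differed by -0.21 (SE 0.11), FADS2, a desaturase, by -0.24 (SE 0.16), ELOVL6, an elongase, by 0.26 (SE 0.18) and THRSP by -0.01 (SE 0.10). For high minus low intake, ACACA had a difference of 0.20 (SE 0.09, unadjusted p = 0.0477, limma adjusted p = 1). It was the 1 of the 12 under an unadjusted p of 0.05 for intake, against 3.4% of all rows.

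INSIG1 was also set against 7 gene lists, each scored per steer as the mean of its genes. The immediate early response, transcription factors and regulators that cells switch on within minutes of a stimulus, gave an r of 0.84 over the 16 steers (permutation p = 8e-05, adjusted over the 7 lists p = 0.00056) and a rho of 0.89 (permutation p = 1e-05, the smallest these resamples can give, adjusted p = 7e-05). Its r was 0.86 without the 2 farthest steers, 0.84 after removal of the group means and 0.87 without the low gain-low intake steers. The list was chosen with earlier results of these data known, so these p-values are not those of an independent test. The list mean was 10.42, 10.42, 11.39 and 12.03 in the low gain-low intake steers, against up to 11.09 in high gain-high intake, 10.41 in high gain-low intake and 11.80 in low gain-high intake. The 4 steers with the most INSIG1 were also the 4 with the highest list mean, in a different order. These were low gain-low intake steers 3 and 4 and steer 4 of low gain-high intake and of high gain-high intake. By the paper's account the spleens were sampled some time after exsanguination, and the animals of a day were processed serially. The delay of each steer is not given in the sources used here, and its part in these values was not tested.

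Within that list, FOSB, a subunit of the AP-1 factor, had an r of 0.90 with INSIG1, ATF3, a stress-induced repressor, 0.89, NR4A3, an orphan nuclear receptor, 0.89 and NR4A2, its relative, 0.67. Other genes of the list had lower values, such as JUN with 0.31, FOS with 0.40, IER3 with 0.41, IER2 with 0.48 and EGR1 with 0.58, named here for their r. ATF3 averaged 9.58 in low gain-low intake and between 8.06 and 8.34 in the other groups (difference 1.38, SE 0.33, limma adjusted p = 0.507). NR4A3 averaged 12.35 in low gain-low intake and between 9.51 and 10.07 in the other groups (difference 2.56, SE 0.76, limma adjusted p = 0.667). NR4A2 differed by 1.15 (SE 0.43) and FOSB by 1.57 (SE 0.66). Of the 16 genes, 14 had a positive and 2 a negative low gain-low intake difference, 5 had an unadjusted p under 0.05 with higher values in that group, against 2.96% of all rows, and 0 had an adjusted p under 0.05. What part the immediate early response had in the INSIG1 values was not tested.

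Cytosolic heat shock genes were highest in the low gain-low intake group, yet ordered the steers differently from INSIG1. All 15 measured differences of low gain-low intake from the other groups were positive and 14 had an unadjusted p under 0.05, against 2.96% of all rows called higher, with 0 under 0.05 after adjustment. The list had in part been picked by the study on these animals and is not independent evidence of the direction. HSPH1, a chaperone of the HSP110 class, differed by 2.97 (SE 0.47, limma adjusted p = 0.143), DNAJB4 by 2.21 (SE 0.41), DNAJA4 by 1.52 (SE 0.29) and DNAJA1 by 1.02 (SE 0.22), the last 3 being cochaperones of HSP70. The list mean was 14.22, 12.66, 13.03 and 13.69 in the low gain-low intake steers and at most 12.86 in the other 12. Steer 1 had the most heat shock signal with INSIG1 at 10.36, and steer 3 had the most INSIG1 with a heat shock mean of 13.03. The r of INSIG1 with the list was 0.61 (permutation p = 0.0157, adjusted p = 0.055; rho = 0.48, permutation p = 0.0612, adjusted p = 0.144), 0.74 without the 2 farthest steers and 0.11 after removal of the group means. Its part in the INSIG1 values was not tested.

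The 5 other lists had an r with INSIG1 between -0.09 and 0.42 (adjusted p between 0.245 and 0.878) and a rho between 0.09 and 0.48 (adjusted p between 0.144 and 0.736). Over the 12 steers outside low gain-low intake, however, r was 0.84 for the other sterol synthesis enzymes and 0.87 for the SREBP1 targets, the same size as for the immediate early list, and 0.65 for the LXR list, 0.49 for the proteins that handle the precursor and 0.39 for uptake and transport. These values are a description without a test. The neutrophil list was highest in low gain-low intake steer 2, at 12.6, where INSIG1 was lowest within its group. Of its 8 measured markers 3 were positive and 5 negative for low gain-low intake, where 49.5% of all rows were positive. Of these markers 0 had an unadjusted p under 0.05, against 5.49% of all rows. Of 6 plasma cell markers, 1 was positive and 5 negative for low gain-low intake, against the same 49.5% positive. At an unadjusted p under 0.05, 1 was higher and 1 lower, against the same 5.49% of all rows, and 0 passed after adjustment. The list mean was between 12.003 and 12.8 in those steers and between 12.1 and 13.0 in the others. JCHAIN, the joining chain of secreted antibodies, averaged 19.34 in low gain-low intake and between 19.54 and 19.60 in the other groups. These means lay close to the ceiling of the stretched scale. The part of that ceiling in the JCHAIN values was not tested. The JCHAIN difference was -0.23 (SE 0.08, unadjusted p = 0.0141, limma adjusted p = 0.788). Singled out after its values were seen, JCHAIN had an r of -0.83 with INSIG1. SDC1, the positive marker, went the other way, with a difference of 0.27 (SE 0.12, unadjusted p = 0.0399, limma adjusted p = 0.875) and an r of 0.63. The remaining plasma cell markers had negative differences and an r with INSIG1 between -0.28 and -0.16. The r of INSIG1 was 0.51 with the pancreas markers, 0.49 with the liver markers, -0.42 with macrophage markers, -0.32 with proliferation markers and -0.25 with the plasma cell list. With the other marker lists it was between -0.24 and 0.18, all without a test. The list means per steer were at most 7.68 for pancreas and 7.49 for liver, below the median of 8.29 over all rows. The part of these cell types in the INSIG1 values was not tested.

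**Figure D4:**
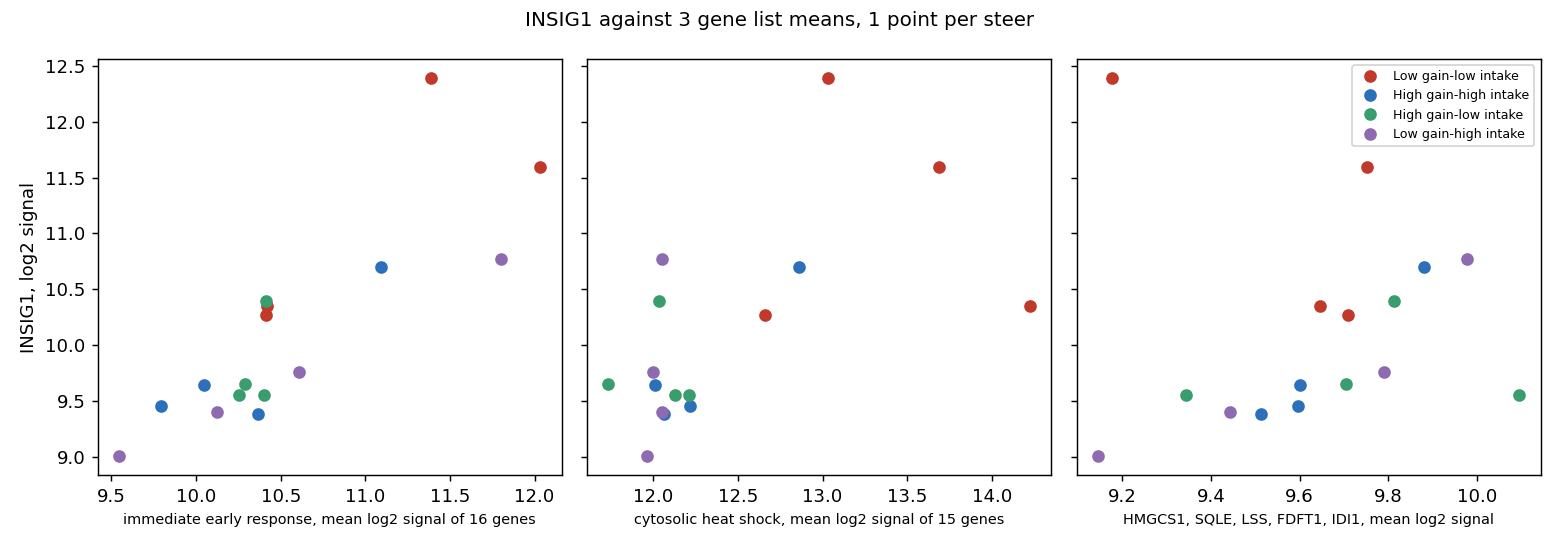
INSIG1 (vertical axis, log2 signal) in each of the 16 steers, coloured by group, against the mean log2 signal of 16 immediate early genes (left), of 15 cytosolic heat shock genes (middle) and of the 5 enzymes HMGCS1, SQLE, LSS, FDFT1 and IDI1 (right). Over all 16 steers r of INSIG1 with the immediate early mean is 0.84, and in the high gain-low intake steers that mean spans only 10.26 to 10.41, while the steer with INSIG1 at 12.39 has an enzyme mean of 9.18.

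The genes whose values were most like those of INSIG1 over the 16 steers, among 9565 with a single symbol and a level above the table median, were KLHL15 (r = 0.93), a ubiquitin ligase adaptor, PGM3 (0.91), an enzyme of UDP-N-acetylglucosamine synthesis, ELL2 (0.91), a transcription elongation factor, ARID5B (0.91), a DNA-binding protein, and TLR4 (0.91), the receptor for bacterial lipopolysaccharide. KLHL15 was also higher in low gain-low intake, by 1.95 on the log2 scale, and TLR4 by 0.98. In the same order of likeness, IDI1 was at place 1976, FDFT1 at 2203, SREBF2 at 3249, SQLE at 4302 and HMGCS1 at 6266. LSS, with a mean of 7.90, was below the table median of 8.29 and so had no place. These places hold for all 16 steers together. Outside low gain-low intake, r with INSIG1 was 0.74, 0.67, 0.65, 0.64 and 0.80 for KLHL15, PGM3, ELL2, ARID5B and TLR4. There it was 0.81 for FDFT1, 0.59 for SQLE, 0.59 for LSS, 0.50 for HMGCS1, 0.41 for SREBF2 and 0.33 for IDI1. Those most like the mean of the 5 enzymes, among 9560, were HTRA2 (r = 0.85), a mitochondrial protease, CD9 (0.84), a tetraspanin, H2AC8 (0.83), a histone H2A, NSDHL (0.81), the sterol dehydrogenase named above, and RNF113A (0.78), a ring finger protein. INSIG1 had an r of 0.05 and SREBF2 of 0.17 with that mean over all 16 steers, and a rho of 0.48 and 0.15. Outside low gain-low intake, r was 0.69 for INSIG1 and 0.18 for SREBF2, given without a test. The genes named as most alike were picked by their r on the same arrays.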

How the data were processed

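Spleen RNA of 16 steers was hybridised to Affymetrix Bovine 1.1 ST arrays, 1 per steer. In Affymetrix Expression Console the authors applied GC content normalization, signal stretching (SST) and RMA, and deposited 1 log2 value per transcript cluster and steer. Stretching widens differences, and the scale has a ceiling at 19.9. Transcriptome Analysis Console is also named in the submitters' processing notes, and no version of either program is stated in the sources used here. Of 26773 features, 1776 whose IDs precede all annotated IDs were dropped, and of the 24997 kept, 18790 had 1 gene symbol, 385 several and 5822 were not listed. Clusters of a gene were averaged, which left 24651 rows.

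The rows were fitted with 4 group means and no covariate in limma 3.58.1 (R 4.3.3) and adjusted by Benjamini-Hochberg over all rows. Single genes also had two-sided exact permutation tests over steers (1820 splits for 4 of 16, smallest p 0.000549, and 12870 for 8 of 16, smallest p 0.000155). F statistics and correlations used 100000 resamples, but correlations under the alternatives named below used fewer. The fit was tested on simulated data. The alternatives were array weights, ordinary least squares, trend with robust moderation, median centring, quantile normalization, a filter at the median level, all features, single clusters, and leaving out each steer. Named genes were the 7, up to 4 of each list with the smallest F test p, and the 5 most like INSIG1 and most like the enzyme mean. Others named for their r or for a count were chosen after their values were seen. The genes and lists were chosen with earlier results of these data known. No sequences are given, since no sequence table of this genome was used here.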

Additional observations from a re-analysis of the deposited data

Results flagged for a closer look

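INSIG1 in high gain-low intake steer 2, at 10.399, was far above the other 3 steers of its group, which lay between 9.56 and 9.65. The gap was 0.889 of the range of the group, over the 95% critical value of Dixon's test for 4 samples. Of the 28 sets of a gene and a group tested, this was the 1 past the critical value, and chance alone puts about 1 in 20 there.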

How the results depend on the processing

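INSIG1 in low gain-low intake against the other groups was positive under every alternative, between 0.964 and 1.67 when single steers were left out (exact permutation p between 0.0044 and 0.022, limma adjusted p between 0.256 and 1). Under array weights, 3 rows were called at an adjusted p under 0.05 for that contrast, and the SREBF2 interaction, 0.02 in the reported fit and 0.06 after median centring, was -0.11. The cause was not tested. With the filter at the median level, which leaves fewer rows to test, the unadjusted counts were 639 for gain, 341 for intake, 620 for the interaction, 800 for low gain-low intake and 516 for the F test. HMGCS1 with FDFT1 had an adjusted p of 0.0508 (r = 0.616) after quantile normalization. Outside the omission of steers, 322 further values were classed as unchanged. Differences and correlations among them kept their direction and side of the threshold. F tests kept their side of the threshold, and counts of rows kept a similar size. With each steer left out in turn, the adjusted calls ran from 0 to 1 for gain, intake, the interaction and the F test and from 0 to 11 for low gain-low intake (11 without its steer 2). Directions turned for the following differences, of which none passed the adjusted threshold. HMGCS1 intake ran from -0.183 to 0.000236, SQLE intake from -0.166 to 0.0592, FDFT1 intake from -0.0449 to 0.158 and IDI1 intake from -0.0314 to 0.0625. SQLE ran from -0.246 to 0.174 for the interaction and from -0.210 to 0.131 for low gain-low intake, and LSS from -0.317 to 0.0637 and from -0.181 to 0.106. SREBF2 ran from -0.106 to 0.221 for gain, -0.236 to 0.0914 for intake, -0.348 to 0.307 for the interaction and -0.234 to 0.112 for low gain-low intake. Correlations ran from 0.598 to 0.758 for HMGCS1 with LSS, 0.570 to 0.691 for HMGCS1 with FDFT1, 0.610 to 0.816 for SQLE with FDFT1 and 0.459 to 0.694 for LSS with FDFT1, each on both sides of the adjusted threshold. No paired analysis was possible because the labels carry no replicate numbers shared between groups, and the slaughter day of each steer is not given in the sources used here.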
